A study of Homo sapiens
Mus musculus with 8 samples.

Results

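Malat1 and Neat1 are long noncoding RNAs that stay in the nucleus, and their levels were followed here in 4 lymphocyte cell lines and in the free RNA around the cells. The members are 4 genes of the 60736 that were counted, chosen by name in both species: Malat1 (ENSMUSG00000092341) and Neat1 (ENSMUSG00000092274) of the mouse, and MALAT1 (ENSG00000251562) and NEAT1 (ENSG00000245532) of human. The human pair lie near each other in RefSeq (GRCh38.p14), with FAUP4, ENEMAL and LINC02736 between them. All 4 genes had counts in every library and passed the filter on low counts in every test.

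The study mixed equal parts of the mouse lines EL4 (CD4 T cells) and IVA12 (B cells) and the human lines Jurkat (CD4 T cells) and TALL-104 (CD8 T cells, the smallest of the 4). No genetic change is named for any line. By the study's methods each line grew in its own medium, with interleukin-2 for TALL-104 alone, and TALL-104 cultures were less viable, so line and culture cannot be told apart. Single cells were captured with 3 Chromium kits (5′ v1, 3′ v2 and 3′ v3) that read the 3′ or the 5′ end of a transcript and that count each captured molecule by a unique molecular identifier (UMI). Used here were 1 library of 3′ v2 (replicate 2), 2 of 5′ v1 and 4 of 3′ v3, which hold 24790710 to 251164949 UMIs each. The other 3′ v2 library was not analysed here. By the study's sample summary, cell mixture A went into 3′ v2, B into 5′ v1, F into replicates 1 and 3 of 3′ v3 and G into its replicates 2 and 4, so kit and cell mixture cannot be told apart between kits. Each library holds all 4 lines, and no source says that libraries of 1 mixture came from separate cultures, so p-values measure only the spread between these libraries, which may be technical.

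Malat1 gathers in nuclear speckles, the bodies in which splicing factors are stored, and Neat1 is the RNA scaffold on which paraspeckles are built. Malat1 ends in a triple helix in place of a poly(A) tail, and a stretch of adenosines encoded in the gene lets oligo(dT) primers bind it, which makes it a prominent transcript of single-cell libraries. Both stay in the nucleus while most messenger RNA is in the cytosol, and a high share of mitochondrial transcripts, the other measure used here, is a common sign by which damaged cells are filtered out.

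A barcode was taken as a cell from 1000 UMIs on if over 80% of them came from 1 species, which left 30030 of 32377 barcodes. A fixed ratio of marker genes then named 10905 EL4, 5829 IVA12, 8105 Jurkat and 2666 TALL-104 cells, among them only 41 TALL-104 cells in 3′ v2 and 70 and 30 in 5′ v1. A second set of markers checked these names. Of the EL4 markers, 6 of 6 in the reference were higher in EL4 than in IVA12 in every library, at a summed level, in UMIs per 1000000 UMIs (CPM), of 1570 to 2194 against 6.56 to 42.5. The IVA12 markers summed to 302 to 497 against 2.95 to 17.8 CPM with 4 of 8 higher in every library. In TALL-104, 5 of 8 markers were higher than in Jurkat in every library, at a summed level of 2642 to 9188 against 21.9 to 74.9 CPM. The highest of them were CCL5 (1355 to 7866 CPM) and GZMA (803 to 2171 CPM). CD8B, a chain of the CD8 coreceptor, went the other way, at 0 to 4.86 CPM in TALL-104 against 2.61 to 10.1 CPM in Jurkat. It was higher in TALL-104 in only 1 library. The Jurkat markers set the lines less far apart in their sum alone. They summed to 1544 to 2220 against 780 to 1485 CPM in TALL-104 with 4 of 5 higher in every library. CD3D, a chain of the T cell receptor complex, was the highest of them in both lines, at 805 to 1735 CPM in Jurkat and 752 to 1485 CPM in TALL-104. The others, CD28, TAL1, MYB and CD1E, were at 33.1 CPM or more in Jurkat and at no more than 16.1 CPM in TALL-104. Of the cells, 172 (0.573%) carried a barcode that was also found in another library. In 3′ v3 replicate 3, 1091 barcodes from 1000 up to 2000 UMIs were named EL4 although a median of 14.7% of their UMIs came from the other species (260 such barcodes at 4.36% in replicate 1), among cells under 10% mitochondrial share. The human cells of low depth in that library were alike in this: TALL-104 stood at a median of 17.2% in 390 cells from 1000 up to 2000 UMIs and at 14.5% in 636 cells up to 5000 UMIs, and Jurkat at 17.5% and 11.5% in 25 and 39 cells. With at least 2000 UMIs per cell every call on EL4 was kept, with Malat1 at 1.18 on the log2 scale against IVA12, at 1.27 between kits and at 1.75 between mitochondrial classes.

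Malat1 was higher in the B cell line IVA12 than in the T cell line EL4 in 7 of 7 libraries, while Neat1 showed no common direction. Levels are CPM of the gene among the non-mitochondrial UMIs of the cells' own species, summed over the cells of a line. In EL4, Malat1 was at 3155 CPM in 3′ v2, at 1524 and 1381 CPM in the 5′ v1 libraries (replicates 1 and 2) and at 2230, 4095, 4053 and 4565 CPM in the 3′ v3 libraries (replicates 1 to 4). In IVA12 it was at 14896 CPM, at 2135 and 2053 CPM and at 5997, 11887, 9653 and 14364 CPM in the same order. The lines did not overlap within any kit, and the ratio of IVA12 to EL4 ran from 1.40 to 4.72, lowest in 5′ v1 and highest in 3′ v2. In 3′ v2 the lines differed in mitochondrial share, at a median of 5.58% in IVA12 and 2.10% in EL4. Cells under 10% alone gave 12223 and 3097 CPM there. With the library as a block, edgeR's quasi-likelihood test with Benjamini-Hochberg adjustment put the difference at 1.17 on the log2 scale (SE 0.19, adjusted p = 0.000223), in a comparison that called 77.1% of the tested genes, 38.1% higher and 39.0% lower. Library totals without TMM scaling moved the median of all genes by 0.13 and gave 1.31, and relative to that median Malat1 was 1.18 higher under both scalings.

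Neat1 levels in EL4 were 61.2 CPM in 3′ v2, 157 and 202 CPM in 5′ v1 and 146, 244, 109 and 241 CPM in 3′ v3. In IVA12 they were 77.8 CPM, 95.3 and 102 CPM, and 198, 362, 149 and 422 CPM. IVA12 was the higher line in 5 of 7 libraries, all of them 3′ libraries, and the lower one in both 5′ v1 libraries, with ratios from 0.504 to 1.75. The difference was 0.0014 on the log2 scale (SE 0.23, adjusted p = 0.996 by edgeR's quasi-likelihood test with Benjamini-Hochberg adjustment). Leaving out 1 library moved it between −0.13 and 0.20 without a call.

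**Figure D1:**
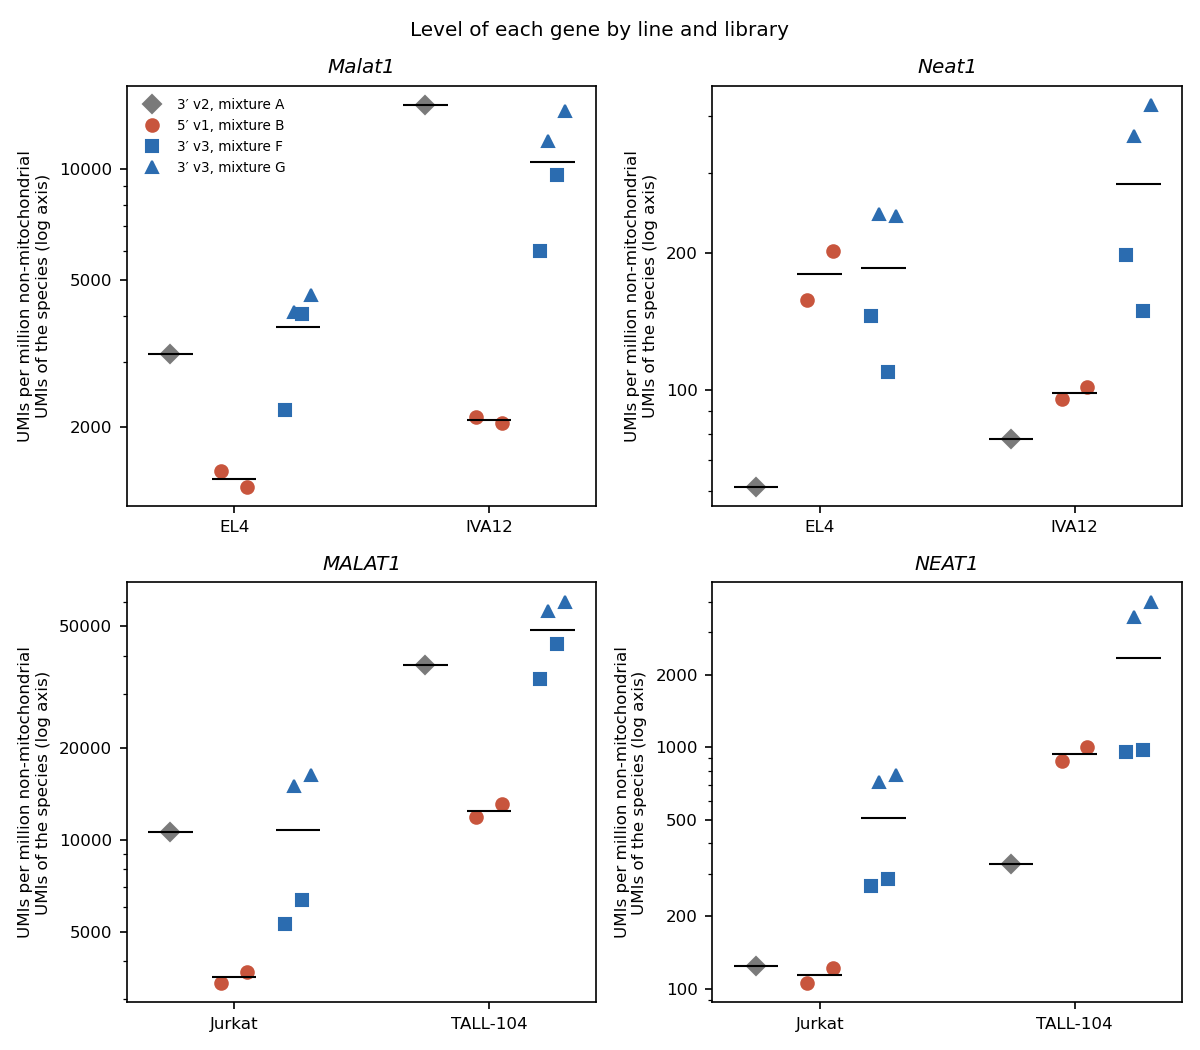
Level of each member by cell line and kit, in CPM of non-mitochondrial UMIs on a log axis, with 1 point per library, horizontal bars for the mean of a kit and symbols for kit and cell mixture. Malat1 of IVA12 lies between 2053 and 14896 CPM against 1381 to 4565 CPM in EL4, and MALAT1 of TALL-104 lies between 11843 and 60220 CPM against 3387 to 16277 CPM in Jurkat.

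Between the mouse lines, where 38.1% of all genes were called higher and 39.0% lower, the shares called among the genes of the body proteins were no larger with TMM. These lists, here and below, give levels of the messenger RNAs that encode the proteins, and no protein was measured. Of 12 paraspeckle proteins, 2 were higher and 4 lower in IVA12, with a median log2 difference of −0.15 beside −0.0033 for all genes. Nono, a core paraspeckle protein, was the highest of those called (0.61), and the RNA-binding protein Hnrnph3 the lowest (−1.02). Of 10 nuclear speckle proteins, 3 were higher and 3 lower, and library totals without TMM made that 5 and 1, beside 42.8% of all genes higher and 34.6% lower. Among the other nuclear long noncoding RNAs, 3 of 7 were tested, of which Ftx (1.62) and Jpx (1.40) were higher and Kcnq1ot1, which silences imprinted neighbours, lower (−2.08). Of the 4 transcripts known for retained introns, 2 were higher, led by the splicing kinase gene Clk4 (0.55).

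In the human lines both RNAs were higher in TALL-104 than in Jurkat in every library. MALAT1 in Jurkat was at 10610 CPM in 3′ v2, at 3387 and 3697 CPM in 5′ v1 and at 5287, 15004, 6354 and 16277 CPM in 3′ v3. In TALL-104 it was at 37242 CPM, at 11843 and 13080 CPM and at 33650, 56275, 43619 and 60220 CPM. The ratio within a library ran from 3.50 to 6.86, and within each kit the lowest TALL-104 library was above the highest Jurkat library. Cells of TALL-104 held far fewer UMIs, a median of 1929 to 2762 against 10075 to 18522 in Jurkat, and the lines lay closer at like depth in some libraries. With cells of 2000 up to 5000 UMIs and under 10% mitochondrial share, TALL-104 and Jurkat were at 11772 and 4655 CPM in 5′ v1 replicate 1. The same classes were at 29894 and 6454 CPM in 3′ v3 replicate 1, at 41880 and 19888 CPM in replicate 3 and at 58600 and 34805 CPM in replicate 4. From 1000 up to 2000 UMIs the values in replicate 1 were 39339 and 5491 CPM, from 252 and 77 cells, and in replicate 3 they were 53012 and 41846 CPM, the latter from 25 Jurkat cells. TALL-104 was the higher line in each of these pairs, and they were not tested. Below 5000 UMIs a cell is named Jurkat only if it holds no UMI of NKG7, CST7 or CD8A, the genes that name TALL-104. A TALL-104 cell in which these were missed would thus be named Jurkat, so lines are told apart less well at low depth. Jurkat cells of 10000 or more UMIs in 3′ v3 replicate 3 were at 6268 CPM. The difference was 2.07 on the log2 scale (SE 0.16, adjusted p = 2.13e-12 by edgeR's quasi-likelihood test with Benjamini-Hochberg adjustment), where 66.9% of tested genes were called, 30.3% higher and 36.7% lower.

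NEAT1 in Jurkat was at 124 CPM in 3′ v2, at 105 and 122 CPM in 5′ v1 and at 268, 718, 284 and 772 CPM in 3′ v3. In TALL-104 its levels were 328 CPM, 880 and 1004 CPM, and 961, 3472, 975 and 4018 CPM. The ratio ran from 2.64 in 3′ v2 to 8.36 in 5′ v1, and the lines did not overlap within a kit. With cells of 2000 up to 5000 UMIs and under 10% mitochondrial share, NEAT1 in TALL-104 and Jurkat was at 941 and 190 CPM in 5′ v1 replicate 1. In 3′ v3 it was at 1002 and 241 CPM in replicate 1, at 1002 and 524 CPM in replicate 3 and at 4098 and 1557 CPM in replicate 4, so that the lines lay closer than over all their cells in these libraries other than 3′ v3 replicate 1. These values at like depth were not tested and carry the same limit in the naming of Jurkat cells. The log2 difference was 2.25 (SE 0.18, adjusted p = 4.29e-12 by edgeR's quasi-likelihood test with Benjamini-Hochberg adjustment). The few TALL-104 cells of some libraries limit single values: the 1004 CPM of 5′ v1 replicate 2 come from 30 cells and have an exact Poisson interval of 807 to 1234 CPM (95%), which covers counting error only.

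Messenger RNAs for proteins of the bodies that hold these RNAs were mostly lower in TALL-104, in a comparison that called 30.3% of all genes higher and 36.7% lower. Of the 12 paraspeckle proteins, none was higher and 9 were lower, with a median of −0.85 beside −0.11 for all genes, from −0.74 for TARDBP to −1.04 for DAZAP1. Of the 10 nuclear speckle proteins, 7 were lower, led by the splicing factor SRSF1 (−1.02), and SRSF5 was higher (0.66). Of the 4 transcripts with retained introns, 3 were higher, with CLK4 at 1.56. Among 5 tested nuclear long noncoding RNAs, FTX (2.14) and MIAT (1.76) were higher and none was lower. The counts for the paraspeckle and speckle proteins were the same with library totals in place of TMM.

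Between kits, Malat1 was higher in 3′ v3 than in 5′ v1 in both mouse lines, and more so in IVA12. Its mean in EL4 was 1452 ± 101 CPM over the 5′ v1 libraries (SD, n = 2) and 3736 ± 1030 CPM over those of 3′ v3 (SD, n = 4). The means in IVA12 were 2094 ± 58.3 CPM and 10475 ± 3552 CPM, and in neither line did the kits overlap. By edgeR's quasi-likelihood test with Benjamini-Hochberg adjustment the difference was 1.27 on the log2 scale in EL4 (SE 0.29, adjusted p = 0.0143; 35.6% of genes called, 18.6% higher and 17.0% lower) and 2.30 in IVA12 (SE 0.30, adjusted p = 0.00789; 9.06% of genes called, 4.32% higher and 4.74% lower). Without replicate 1 or 2 of 5′ v1, 1 library remained in that arm and its spread was taken from the other libraries. The calls were then lost, at 1.37 and 1.16 in EL4 (adjusted p = 0.0890 and 0.143) and at 2.37 and 2.26 in IVA12 (adjusted p = 0.126 and 0.122).

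Neat1 passed the test between kits in IVA12 and not in EL4. Its EL4 mean was 180 ± 31.4 CPM with the 5′ kit (SD, n = 2) and 185 ± 67.9 CPM with 3′ v3 (SD, n = 4), with overlapping libraries and a log2 difference of −0.085 (SE 0.24, adjusted p = 0.804 by edgeR's quasi-likelihood test). The IVA12 means were 98.5 ± 4.50 CPM and 283 ± 130 CPM without overlap, and the log2 difference was 1.48 (SE 0.36, adjusted p = 0.0477 by the same test). That call was lost on leaving out either 5′ v1 library (1.47 and 1.51 without replicates 1 and 2, adjusted p = 0.309 and 0.315) or replicate 1, 2 or 4 of 3′ v3 (1.57, 1.39 and 1.29, adjusted p = 0.0561, 0.0800 and 0.0620). It was also lost with library totals (1.52, adjusted p = 0.0796).

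The test of the difference between the lines was passed by both mouse RNAs. The step from 5′ v1 to 3′ v3 was larger in IVA12 than in EL4 by 1.06 on the log2 scale for Malat1 (SE 0.12, adjusted p = 0.000235 by edgeR's quasi-likelihood test with Benjamini-Hochberg adjustment) and by 1.54 for Neat1 (SE 0.14, adjusted p = 9.15e-05), where 30.1% of genes were called, 13.0% in that direction and 17.1% in the other. Both calls held on leaving out any 1 library, at 0.97 to 1.16 and 1.40 to 1.67. With library totals the values were 0.94 and 1.42, and the median of all genes moved by −0.12. Calls over all genes were then 9.64% higher and 22% lower, against the shares above with TMM. In the same test the value of IVA12 less that of EL4 was called below 0 for the messenger RNAs of 5 of 12 paraspeckle proteins and 5 of 10 speckle proteins and above 0 for none. It was called above 0 for 3 of 4 transcripts with retained introns. For Clk4 it was 0.67, with a fall in EL4 (−0.91) and a value of −0.28 in IVA12 that did not pass the test. Library totals made these counts 6, 7 and 3, with 1 of the 4 intron-retaining transcripts then called below 0.

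Within 3′ v3 the levels of both mouse RNAs were also set out by cell mixture. Malat1 averaged 3141 CPM in EL4 and 7825 CPM in IVA12 with mixture F, and 4330 and 13125 CPM with mixture G, each over 2 libraries. Against 5′ v1, mixture F alone gave log2 differences of 1.24 in EL4 and 2.08 in IVA12, and mixture G alone gave 1.25 and 2.51, all called. Neat1 in EL4 was at −0.37 with mixture F and at 0.11 with mixture G, neither of them called, while in IVA12 it was at 0.98 and 1.86, both called. The larger step in IVA12 was also called within each mixture, at 0.83 and 1.24 for Malat1 and at 1.32 and 1.71 for Neat1.

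Both RNAs were higher with 3′ v3 in Jurkat, where the 3′ v3 libraries were far apart. MALAT1 had a Jurkat mean of 3542 ± 219 CPM with the 5′ kit (SD, n = 2) and of 10731 ± 5710 CPM with 3′ v3 (SD, n = 4), a log2 difference of 1.40 (SE 0.40, adjusted p = 0.0499 by edgeR's quasi-likelihood test with Benjamini-Hochberg adjustment; 17.3% of genes called, 8.31% higher and 9.04% lower). The NEAT1 means were 114 ± 11.9 CPM and 510 ± 272 CPM, at 1.97 (SE 0.41, adjusted p = 0.0193 by the same test). No 3′ v3 library overlapped with 5′ v1 for either RNA. The MALAT1 call was lost without replicate 1 or 2 of 5′ v1 (1.40 for each, adjusted p = 0.283 and 0.284) and without replicate 2 or 4 of 3′ v3 (1.26 and 1.21, adjusted p = 0.0987 and 0.0818). The NEAT1 call was lost without replicate 1 or 2 of 5′ v1 (1.93 and 2.01, adjusted p = 0.192 and 0.159). TMM and library totals differed by 0.11 in the median of all genes in Jurkat, and MALAT1 was 1.37 above that median with TMM and 1.46 above it without. The MALAT1 call was lost with library totals (1.60, adjusted p = 0.0807), without the filter on low counts (1.37, adjusted p = 0.0823) and with cells under 10% mitochondrial share (1.52, adjusted p = 0.0600).

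In TALL-104 neither kit difference passed the main test. MALAT1 had a mean of 12461 ± 875 CPM with the 5′ kit (SD, n = 2) and of 48441 ± 12140 CPM with 3′ v3 (SD, n = 4), at 1.97 on the log2 scale (SE 0.57, adjusted p = 0.0591 by edgeR's quasi-likelihood test with Benjamini-Hochberg adjustment; 4.3% of genes called, 2.37% higher and 1.94% lower). Its libraries did not overlap between the kits, and the call was gained without replicate 1 of 3′ v3 (2.03, adjusted p = 0.0332) or replicate 4 (1.89, adjusted p = 0.0499). Over all libraries it was gained with library totals (1.96, adjusted p = 0.0108), without the filter on low counts (2.08, adjusted p = 0.0302), with mitochondrial genes kept (1.97, adjusted p = 0.0459), with cells under 10% mitochondrial share (1.95, adjusted p = 0.0495) and with DESeq2 (1.94, adjusted p = 3.57e-09). The NEAT1 means were 942 ± 87.4 CPM and 2357 ± 1619 CPM, at 1.26 (SE 0.50, adjusted p = 0.153), and its libraries overlapped. Without replicate 1 of 3′ v3 it was called (1.46, adjusted p = 0.0356), as it was without the filter on low counts (1.37, adjusted p = 0.0250). The test of the kit difference between Jurkat and TALL-104 gave 0.75 for MALAT1 (SE 0.36, adjusted p = 0.314) and −0.73 for NEAT1 (SE 0.26, adjusted p = 0.144), neither of them called, where 1.86% of genes were called in either direction (1.16% higher and 0.697% lower; with library totals 0.333% and 1.27%, with the median of all genes moved by −0.25). For NEAT1 the call depends on the fit: it was made with library totals (−0.98, adjusted p = 0.0483, edgeR), with DESeq2 (−1.04, adjusted p = 0.000521) and with mixture F or G alone (−0.96 and −0.75).

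The human values of 3′ v3 were higher with cell mixture G than with F. MALAT1 in Jurkat averaged 5821 CPM with F and 15640 CPM with G, and NEAT1 276 and 745 CPM. In TALL-104, MALAT1 averaged 38634 and 58248 CPM and NEAT1 968 and 3745 CPM. The 2 libraries of a mixture lay close together for NEAT1 in Jurkat, at 268 and 284 CPM with F and at 718 and 772 CPM with G. NEAT1 in TALL-104 was at 961 and 975 CPM with F and at 3472 and 4018 CPM with G. MALAT1 in TALL-104 lay further apart with F, at 33650 and 43619 CPM, than with G, at 56275 and 60220 CPM. Against 5′ v1, NEAT1 in TALL-104 was at 0.25 (adjusted p = 0.307, edgeR) with F and at 1.88 with G, and MALAT1 in Jurkat at 0.87 with F and 1.85 with G. The kit difference of MALAT1 was larger in TALL-104 than in Jurkat with F (1.201, called) and did not pass the test with G (0.062, adjusted p = 0.782, edgeR). Jurkat cells had a median mitochondrial share of 10.2% and 10.5% in the G libraries and of 6.34% and 4.88% in the F libraries. The order of the mixtures was the same in cells of lower share. With cells under 10% alone, MALAT1 in Jurkat was at 5272 and 6338 CPM with F and at 16349 and 18866 CPM with G.

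Levels of both mouse RNAs were several times higher in cells with at least 20% mitochondrial UMIs than in cells with under 5%. Mitochondrial genes were left out of the totals, so their own share does not enter the CPM. In EL4 cells under 5%, Malat1 was at 1416 and 1329 CPM in 5′ v1 and at 2158, 3811 and 3107 CPM with 3′ v3 (replicates 1, 3 and 4). At 20% or more it was at 9218 and 6269 CPM and at 14511, 17442 and 13674 CPM, from 20 to 165 cells a library. Each library with at least 20 such cells (5 of 7) showed the higher level, by a ratio of 4.40 to 6.72, and no high value overlapped with a low one. In the 5 cells of 3′ v2 Malat1 was at 19855 CPM against 3059 CPM, and in the 4 cells of 3′ v3 replicate 2 at 15635 against 5007 CPM.

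Neat1 in EL4 cells went from 140 and 176 CPM to 2301 and 1678 CPM in 5′ v1, and from 137, 103 and 150 CPM to 904, 409 and 949 CPM with 3′ v3 (replicates 1, 3 and 4). It was higher in 5 of 5 libraries, by a ratio of 3.96 to 16.4, with the largest ratio in 5′ v1 replicate 1. By edgeR's quasi-likelihood test with Benjamini-Hochberg adjustment, with the library as a block, Malat1 was 1.48 higher on the log2 scale (SE 0.18, adjusted p = 1.09e-09) and Neat1 2.02 higher (SE 0.18, adjusted p = 4.22e-13), while 42.7% of all genes were called, 17.0% higher and 25.7% lower. These values depend on the scaling. With library totals Malat1 was at 2.38 and Neat1 at 2.92, the median of all genes went from −0.23 to 0.58, and 34.4% of genes were called higher and 9.3% lower. Relative to the median of all genes, Malat1 was 1.71 higher with TMM and 1.80 higher without, and Neat1 2.25 and 2.34.

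In IVA12, 3 libraries held at least 20 such cells, 3′ v3 replicates 1, 3 and 4 with 86, 253 and 93. Malat1 went from 5105, 8816 and 14816 CPM under 5% to 26654, 28033 and 29666 CPM at 20% or more, and Neat1 from 161, 132 and 488 CPM to 635, 302 and 1044 CPM. In these 3 libraries the levels of Malat1 at 20% or more lay close together although those under 5% did not. Smaller sums lay further apart, at 49671 CPM in the 11 cells of 3′ v3 replicate 2 and at 28039 CPM in the 17 cells of 3′ v2. In 5′ v1 they were at 11644 and 17787 CPM, from 17 and 5 cells. The log2 differences were 1.56 for Malat1 (SE 0.21, adjusted p = 4.70e-08) and 1.41 for Neat1 (SE 0.20, adjusted p = 2.58e-07) by edgeR's quasi-likelihood test with Benjamini-Hochberg adjustment, with 35.8% of genes called, 15.7% higher and 20.1% lower. With library totals they were 1.67 and 1.51. The fit covered both mouse lines and all mitochondrial classes, so its p-values take the spread from all these sums and not from the 3 libraries alone. Counting libraries with at least 5 such cells, both RNAs were higher in 7 of 7 libraries, Malat1 by a ratio of 2.00 to 8.40 and Neat1 by 2.14 to 10.7.

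**Figure D2:**
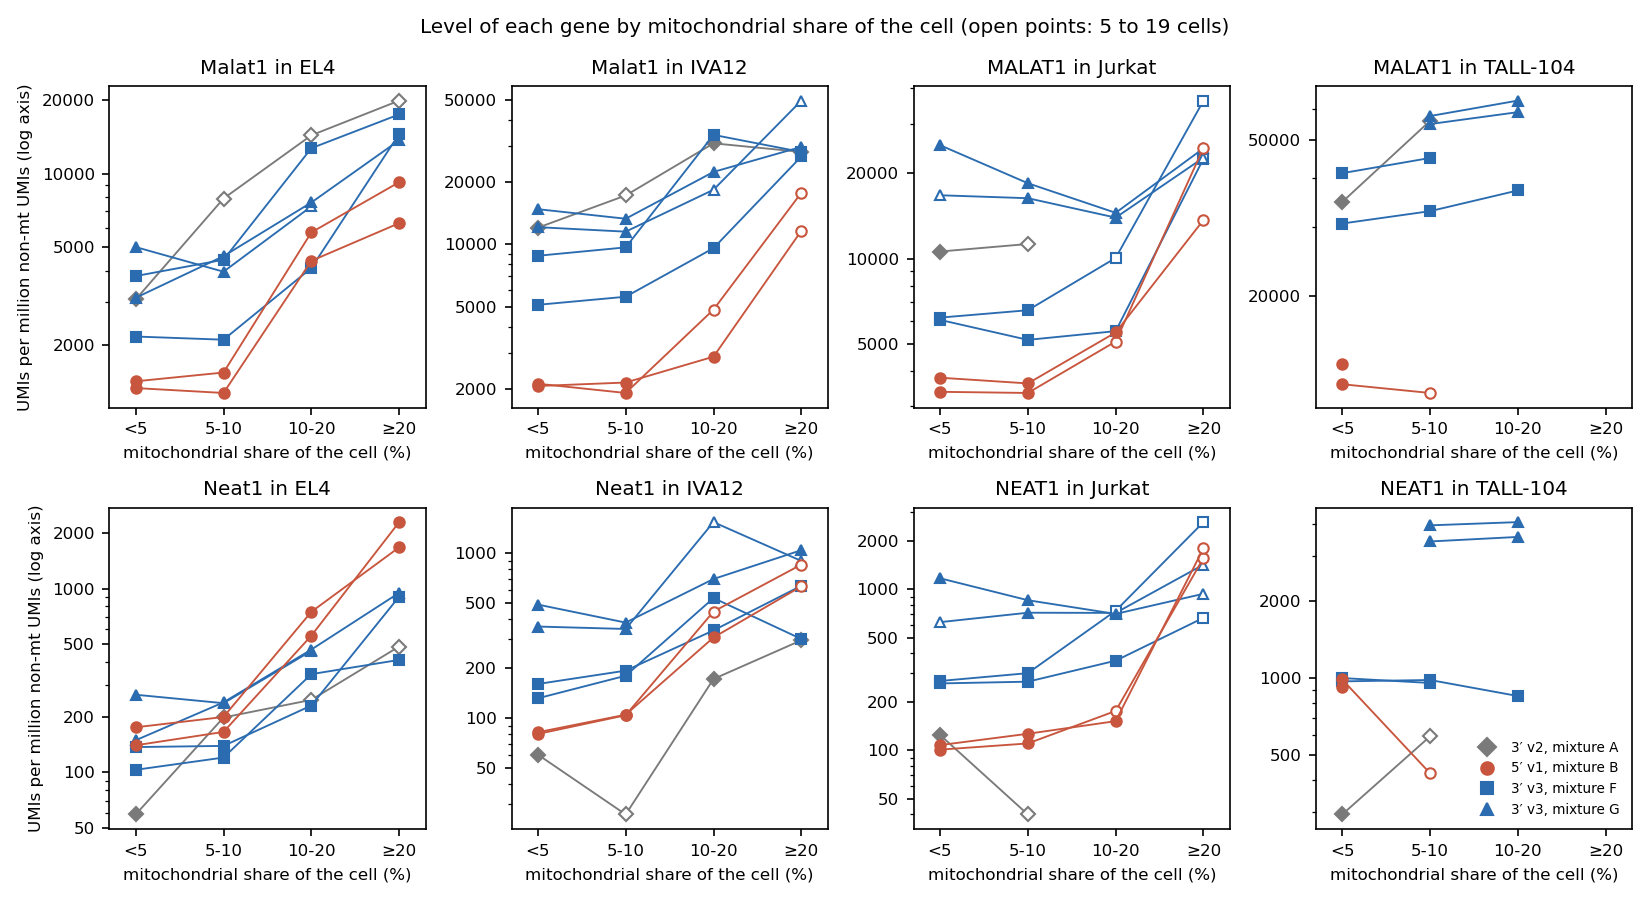
Level of each member (CPM of non-mitochondrial UMIs, log axis) by mitochondrial share of the cell, with 1 line per library in each cell line and open points for sums of 5 to 19 cells. Malat1 of EL4 lies between 6269 and 17442 CPM at 20% or more in the 5 libraries with at least 20 such cells, against 1329 to 3811 CPM under 5% in the same libraries.

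Between the classes of lowest share Malat1 showed no common direction. From under 5% to 5 to 10% its ratio was 0.793 to 1.48 in EL4 and 0.899 to 1.10 in IVA12, higher in 3 of 6 libraries in each. From 5 to 10% to 10 to 20%, its ratio was 1.66 to 3.74 in EL4 (higher in 5 of 5 libraries) and 1.33 to 3.50 in IVA12 (4 of 4). Neat1 had ratios of 0.899 to 1.61 in EL4 (higher in 5 of 6 libraries) and 0.777 to 1.37 in IVA12 (4 of 6) for the first step, and of 1.66 to 3.73 and 1.75 to 2.96 for the second.

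Counted as molecules per cell, Malat1 lay closer between the classes than the rest of the RNA did. These counts were not tested. An EL4 cell of 3′ v3 replicate 1 held a mean of 33.7 UMIs of Malat1 under 5% and 43.6 at 20% or more, while its non-mitochondrial UMIs went from 15612 to 3004. In 5′ v1 replicate 1 the same cells held 35.1 and 24.3 UMIs of Malat1 and 24800 and 2638 non-mitochondrial UMIs. Across the 5 libraries the ratio of the classes was 0.548 to 1.29 for the UMIs of Malat1 per EL4 cell and 0.106 to 0.192 for all non-mitochondrial UMIs per cell. The 1.29 was that of 3′ v3 replicate 1, whose cells under 5% had a median of only 7404 UMIs, and the next ratio was 0.710. Cells of 5 to 10% held a mean of 56.1 UMIs of Malat1 in that library. In replicate 3 they held 101, against 72.2 under 5%. In IVA12 the ratios for Malat1 and for all non-mitochondrial UMIs were 0.421 to 0.971 and 0.132 to 0.471 over 3 libraries. Among cells of 2000 to 10000 UMIs, the log2 differences in CPM were 1.73 for Malat1 and 2.30 for Neat1 in EL4, and 1.89 and 1.79 in IVA12, all called. The classes still differed in depth within that range, in IVA12 of 3′ v3 replicate 1 with a median of 3609 UMIs under 5% and of 6566 at 20% or more. In 3′ v3 replicate 4 the classes lay closer within that range, with Malat1 at 7370 CPM under 5% and 13568 CPM at 20% or more in EL4, where all cells of the classes gave 3107 and 13674 CPM. In IVA12 of that library it was at 20936 and 26644 CPM, against 14816 and 29666 CPM over all cells.

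**Figure D3:**
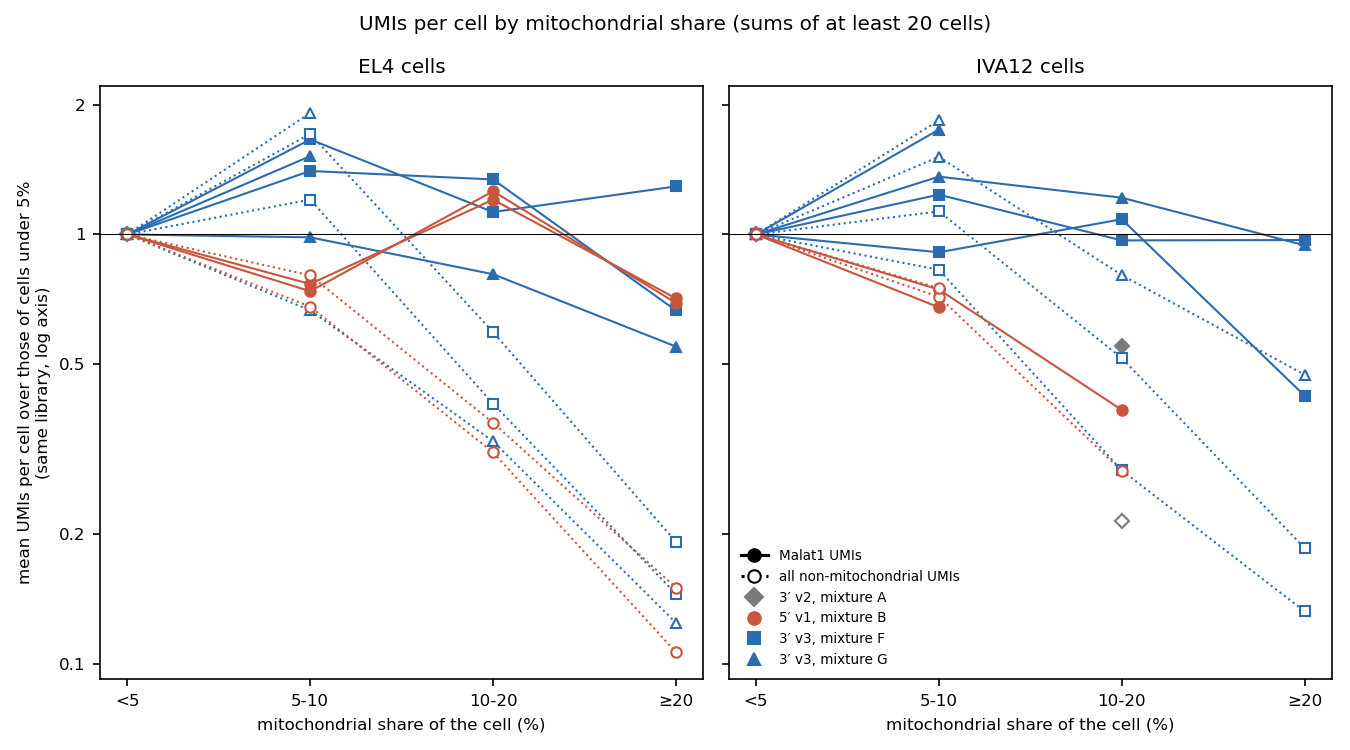
Mean UMIs per cell by mitochondrial share in EL4 and IVA12, divided by the mean of the cells under 5% in the same library, on a log axis, for Malat1 (filled points, solid lines) and for all non-mitochondrial genes (open points, dotted lines), over sums of at least 20 cells with 1 line per library. At 20% or more Malat1 lies between 0.548 and 1.29 in EL4, and all non-mitochondrial UMIs between 0.106 and 0.192.

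Other nuclear RNAs were described by list, beside 17.0% of all genes higher and 25.7% lower in EL4 and 15.7% and 20.1% in IVA12. Of the 4 transcripts with retained introns, 4 were higher in EL4 and 3 in IVA12, with Ogt, which encodes the enzyme that adds O-GlcNAc to proteins, highest in both lines (1.37 and 1.56 on the log2 scale), and these counts were the same with library totals. Of 3 tested nuclear long noncoding RNAs, Kcnq1ot1 was higher in EL4 (1.84), where Ftx (0.75) and Jpx (0.55) did not pass the test (3 of 3 higher with library totals). It was also higher in IVA12 (1.94), where Ftx (1.01) and Jpx were higher as well. Of the 5 cytosolic messenger RNAs, 4 were lower in each line (3 in EL4 with library totals). Among these, Tpt1 fell by 2.53 in EL4 and the glycolytic Gapdh by 1.95 in IVA12. B2m, the light chain of class I molecules, was higher in both (1.34 and 1.26). Of the messenger RNAs for the 12 paraspeckle proteins, 2 were higher and 6 lower in EL4 and none higher and 8 lower in IVA12. With library totals the count in EL4 was 5 higher and 3 lower, beside 34.4% and 9.3% of all genes. The median of the list was below that of all genes with both scalings, at −0.62 against −0.23 with TMM and at 0.21 against 0.58 without. For the 10 speckle proteins in EL4 it was 2 higher and 3 lower with TMM (median −0.21) and 7 and 1 without (median 0.65), and in IVA12 it was none higher and 5 lower with both.

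The difference between the mouse lines was tested too. From under 5% to 20% or more, the difference in Malat1 was larger in IVA12 than in EL4 by 0.075 on the log2 scale (SE 0.28, adjusted p = 0.949) and that in Neat1 by −0.61 (SE 0.27, adjusted p = 0.228), by edgeR's quasi-likelihood test with Benjamini-Hochberg adjustment, with 6.42% of genes called in either direction. With library totals Neat1 was at −1.41 (adjusted p = 0.0023) and Malat1 at −0.71 (adjusted p = 0.0773), while the median of all genes was at −0.63. Against that median the values were −0.79 for Neat1 and −0.081 for Malat1. Calls over all genes were 5.75% higher and 0.666% lower with TMM and 1.82% and 17.0% with library totals.

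Few human cells reached a share of 20%. In Jurkat 6 libraries held 6 to 16 such cells, and sums of at least 5 cells were used for them. MALAT1 under 5% was at 3379 and 3791 CPM in 5′ v1 and at 6068, 16734, 6182 and 25162 CPM in 3′ v3. At 20% or more it was at 24631 and 13687 CPM and at 22543, 22722, 36159 and 24517 CPM, higher in 5 of 6 libraries and level in 3′ v3 replicate 4 (ratio 0.974). NEAT1 went from 101 and 108 CPM to 1566 and 1801 CPM in 5′ v1 and from 260, 625, 269 and 1171 CPM to 665, 1423, 2614 and 938 CPM in 3′ v3, again higher in 5 of 6. The log2 difference was 0.48 for MALAT1 (SE 0.47, adjusted p = 0.546) and 1.09 for NEAT1 (SE 0.33, adjusted p = 0.00902) by edgeR's quasi-likelihood test with Benjamini-Hochberg adjustment, where 16.5% of genes were called, 0.988% higher and 15.5% lower.

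The MALAT1 call in Jurkat depends on the fit. DESeq2 called it (1.81, adjusted p = 1.66e-09). With library totals both RNAs were called, at 1.67 for MALAT1 and 1.79 for NEAT1, the median of all genes went from −0.58 to 0.44, and 6.24% of genes were called higher and 1.49% lower. Relative to the median, MALAT1 was at 1.06 with TMM and 1.23 without, and NEAT1 at 1.67 and 1.35. The NEAT1 call was lost without replicate 1 of 5′ v1 (0.74, adjusted p = 0.189, edgeR), without replicate 3 of 3′ v3 (0.87, adjusted p = 0.174, edgeR) and without the library block (1.12, adjusted p = 0.173, edgeR). It was also lost among cells of at least 2000 UMIs (0.94, adjusted p = 0.0672, edgeR) and of 2000 to 10000 UMIs (0.86, adjusted p = 0.153, edgeR). The median depth of the Jurkat cells was lower at 20% or more than under 5% in 5 of the 6 libraries. In 5′ v1 replicate 1 it was 1710 against 19986 UMIs, and in 3′ v3 replicate 2, the exception, 2749 against 2288 UMIs. Jurkat cells of such low depth carry the limit in naming given above.

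Most human cells of higher share were in the classes of 5 to 10% and 10 to 20%, where neither RNA passed the test. In Jurkat the log2 difference between these classes was −0.12 for MALAT1 (SE 0.10, adjusted p = 0.872) and −0.097 for NEAT1 (SE 0.11, adjusted p = 0.931), by edgeR's quasi-likelihood test with Benjamini-Hochberg adjustment, and 0.267% of genes were called, 0.0485% higher and 0.218% lower. MALAT1 in TALL-104 was at 0.096 (SE 0.11, adjusted p = 0.999) and NEAT1 at −0.061 (SE 0.11, adjusted p = 1), with 0.194% called, 0.0243% higher and 0.17% lower. Within libraries the ratio of MALAT1 was 0.786 to 1.51 in Jurkat (higher in 2 of 4) and 1.07 to 1.13 in TALL-104 (higher in 3 of 3).

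Barcodes under 100 UMIs, taken as droplets without a cell, gave the levels in free RNA. Free RNA of a species can come from both lines in shares that are not known, and it was set against all cells of the species together. Since the lines differ in level, a difference between free RNA and cells cannot be told apart from unlike shares of the lines, which was not tested. Their mouse UMIs held Malat1 at 4539 CPM in 3′ v2, at 965 and 844 CPM in 5′ v1 and at 2771, 3949, 9050 and 3300 CPM in 3′ v3. The mouse cells of the same libraries held 5648 CPM, 1784 and 1633 CPM, and 3526, 7540, 6402 and 8532 CPM. Free RNA was lower in 6 of 7 libraries and higher in 3′ v3 replicate 3. The difference was −0.36 on the log2 scale (SE 0.18, adjusted p = 0.149 by edgeR's quasi-likelihood test with Benjamini-Hochberg adjustment), and −0.48 without that library (adjusted p = 0.0296), where Malat1 was called. It was also called with library totals (−0.62, adjusted p = 0.0418, edgeR) and in barcodes of 10 to 99 UMIs (−0.62, adjusted p = 0.0385, edgeR). Mouse UMIs in human cells gave −1.29 (adjusted p = 1.29e-21, edgeR), at 0.165 to 0.630 of the level in mouse cells, lower in 7 of 7 libraries. Only human cells with under 5% of their UMIs from the mouse were used here.

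Neat1 in free mouse RNA was at 15.5 CPM in 3′ v2, at 38.6 and 38.5 CPM in 5′ v1 and at 90.9, 147, 286 and 133 CPM in 3′ v3. In mouse cells it was at 65.0 CPM, at 131 and 165 CPM and at 164, 295, 127 and 319 CPM. It was again lower in the free RNA in 6 of 7 libraries, the exception being 3′ v3 replicate 3. The difference was −0.86 (SE 0.25, adjusted p = 0.0352 by edgeR's quasi-likelihood test with Benjamini-Hochberg adjustment), with 15.3% of genes called, 7.42% higher and 7.87% lower. The call was lost without replicate 1 or 2 of 5′ v1 (−0.75 and −0.71, adjusted p = 0.0959 for each) or replicate 1, 2 or 4 of 3′ v3 (−0.91, −0.88 and −0.83, adjusted p = 0.0674, 0.0785 and 0.0998), and against cells under 10% mitochondrial share (−0.78, adjusted p = 0.0535). Library totals moved the median of all genes by −0.26, with Malat1 0.35 below that median under both scalings and Neat1 0.85 and 0.86 below it. With library totals 1.72% of genes were called higher and 13.7% lower.

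In 3′ v3 replicate 3 the barcodes of 10 to 99 UMIs were few, 12958 against 55778 to 95339 in the other libraries, and 66874 of its barcodes held from 100 up to 500 UMIs. In that range its Malat1 was at 4310 CPM and its Neat1 at 38.7 CPM, both below the cells. Over all libraries that range, chosen as an alternative after the data were seen, gave −0.62 for Malat1 (adjusted p = 0.00618, edgeR).

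In the human free RNA neither RNA passed the test against cells. MALAT1 was at 11416 CPM in 3′ v2, at 4389 and 3402 CPM in 5′ v1 and at 9733, 15852, 14364 and 17338 CPM in 3′ v3, against 11630 CPM, 3462 and 3781 CPM, and 6616, 22571, 7894 and 22951 CPM in human cells. NEAT1 was at 115, 175, 80.2, 454, 896, 688 and 1197 CPM in the same order, against 133, 111, 129, 304, 1219, 317 and 1254 CPM in cells. Free RNA was the higher one in 3 of 7 libraries for both, in 5′ v1 replicate 1 and in the F libraries of 3′ v3. The log2 differences were −0.061 for MALAT1 (SE 0.10, adjusted p = 0.834) and 0.12 for NEAT1 (SE 0.13, adjusted p = 0.750) by edgeR's quasi-likelihood test with Benjamini-Hochberg adjustment, with 1.78% of genes called, 1.23% higher and 0.55% lower. With library totals, which moved the median of all genes by 0.12, MALAT1 was at 0.097, above 0, and 1.63% of genes were called higher and 0.142% lower. Within libraries the ratio of free RNA to cells ran from 0.702 to 1.82 for MALAT1 and from 0.621 to 2.17 for NEAT1. The shares of Jurkat and TALL-104 in this free RNA are not known. Human UMIs in mouse cells gave another picture, with MALAT1 below the human cells in 7 of 7 libraries (ratios of 0.287 to 0.8294) and called at −1.31. Only mouse cells with under 5% of their UMIs from human were used for this. NEAT1 turned with all 3 other measures of free RNA (−0.18 to −0.29), without a call. The NEAT1 values rest on few molecules, from 8 UMIs in 3′ v2 to 558 in 3′ v3 replicate 3.

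**Figure D4:**
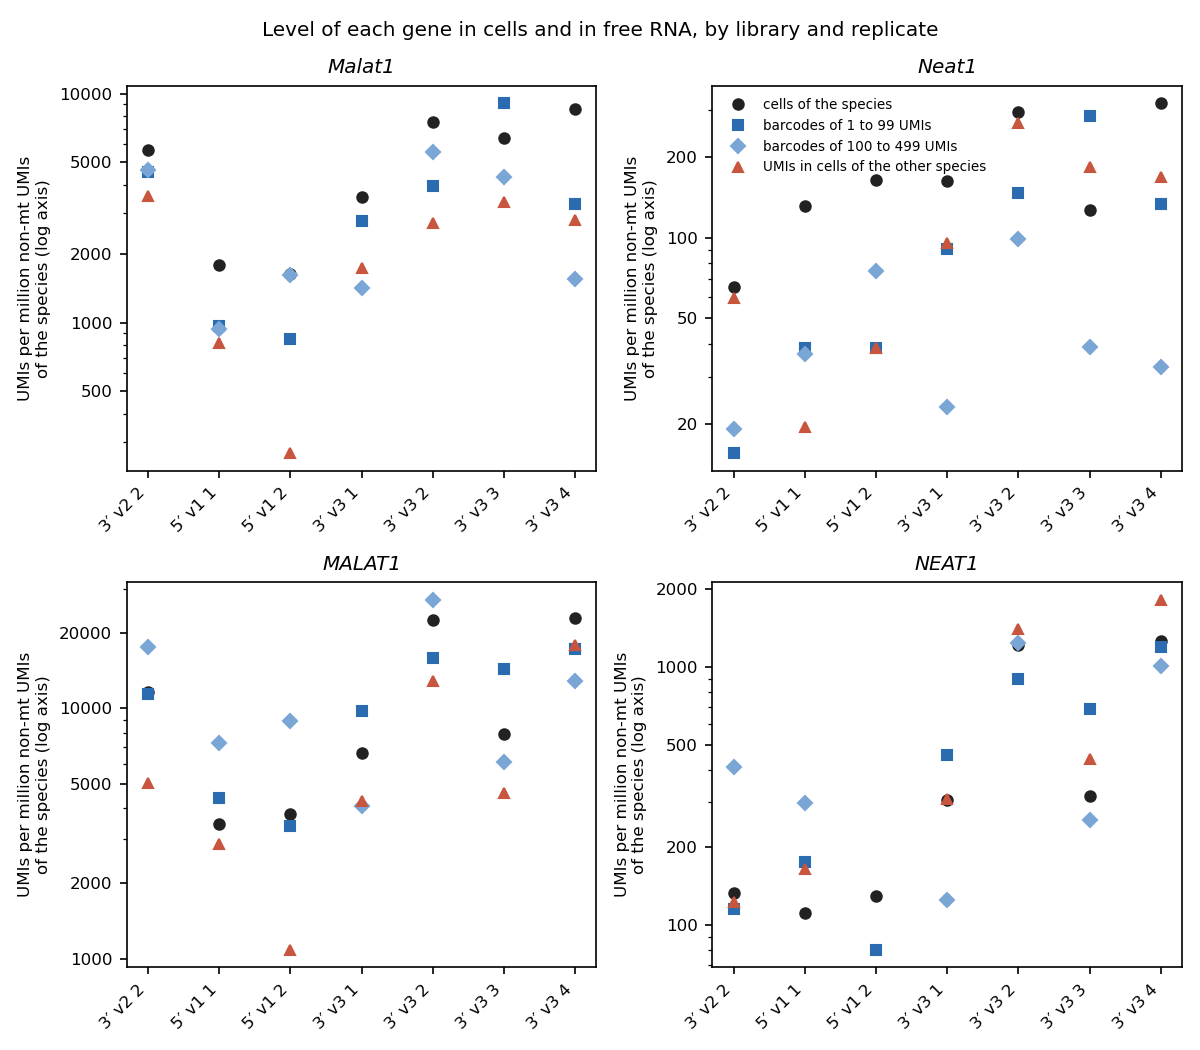
Level of each member by library, in CPM of the non-mitochondrial UMIs of the species on a log axis, in cells (circles) and in 3 other measures: barcodes under 100 UMIs (squares), barcodes from 100 up to 500 UMIs (diamonds) and UMIs found in cells of the other species (triangles). The triangles are from cells with under 5% of such UMIs. The circle of Malat1 lies above the square in 6 of 7 libraries and below it in 3′ v3 replicate 3, and the NEAT1 values of 0 in 5′ v1 replicate 2 have no place on the log axis.

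UMIs of a gene in cells of the other species give the background for detection. Only cells with under 5% of their UMIs from the gene's species were used for it, which left 2860 human cells in 3′ v3 replicate 3. That choice limits how high the background can be, while shares in a gene's own species are over all cells. Free RNA and doublets under this limit cannot be told apart. Each cell was thinned to 1000 UMIs. Malat1 then had a UMI in 70.1% to 95.2% of mouse cells per library and in 0.145% to 11.7% of human cells, with the highest background in 3′ v3 replicate 3. MALAT1 had one in 87.6% to 99.7% of human and 0% to 4.06% of mouse cells. Neat1 was found in 6.29% to 25.7% of mouse cells against 0% to 1.08% of human cells, and NEAT1 in 11.3% to 64.6% of human against 0% to 0.588% of mouse cells. Without thinning, 2.03% to 88.1% of human cells held a UMI of Malat1, at a median of 4680 to 18510 UMIs in human and 23395 to 27403 in mouse cells.

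By line, the shares followed the levels. MALAT1 had a UMI in 100% of the thinned TALL-104 cells of every library and in 86.9% to 99.7% of Jurkat cells. NEAT1 had one in 19.5% of TALL-104 cells in 3′ v2, in 45.7% and 50% in 5′ v1 and in 50.1%, 84.4%, 51.5% and 89.2% in 3′ v3, so that the G libraries stood above the F libraries here too. Neat1 was found in 5.32% to 22.3% of EL4 and 8.55% to 30.6% of IVA12 cells.

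Cells of 1 line differed widely in these RNAs. With 5000 UMIs per cell, Malat1 in IVA12 cells of 3′ v3 replicate 4 had a 10th percentile of 22.9 UMIs, a median of 55 and a 90th percentile of 103. Its variance was 18.2 times its mean there, and 5.03 to 15.5 times in EL4 over the 7 libraries, where sampling from equal cells would give about 1. Neat1 had a variance of 1.17 to 2.71 times its mean in the mouse lines. IVA12 cells with a UMI of Neat1 held more Malat1 than cells without in 7 of 7 libraries, by a ratio of 1.13 to 1.64, and EL4 cells likewise by 1.11 to 1.26. The rank correlation of both RNAs across cells was weak, at a Spearman rho of 0.065 to 0.16 in EL4 and 0.11 to 0.34 in IVA12, over 89 to 2689 cells that share a library and a fixed depth, and it is given as a description.

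Over the sums by library, line and mitochondrial class the members did not all track each other. The Pearson correlation of log2(CPM + 1) was taken over 44 mouse sums and 3111 genes, and over 28 human sums and 3443 genes, with sums of 1 library sharing its depth and kit. Malat1 was closest to Ktn1 (0.927), Rrbp1 (0.920), Sec62 (0.907), Taf1d (0.883) and Mogs (0.869), of which Ktn1, Rrbp1, Sec62 and Mogs encode proteins of the endoplasmic reticulum. Neat1 was closest to Gm21092 (0.931), Phip (0.929), Clk1 (0.922), Pnisr (0.917) and Ep300 (0.914), and stood only at rank 290 in the list of Malat1 (0.554).

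In the human lines, MALAT1 was closest to IQGAP1 (0.959), RP11-640M9.1 (0.956), BIN2 (0.947), PCSK7 (0.947) and RNF213 (0.941). NEAT1 was closest to MGEA5 (0.964), which encodes the enzyme that removes O-GlcNAc, and to MPHOSPH8, AKAP13, FAM107B and PREX1 (0.943 to 0.939). The human pair were closer to each other than the mouse pair by this measure, at 0.884, with NEAT1 at rank 46 for MALAT1.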

How the data were processed

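Titles gave the kit of each of 7 libraries, and replicate numbers, given in accession order, pair nothing across kits. The authors downsampled reads with seqtk and counted them with Cell Ranger 3.0.2 and STAR on a combined hg19 and mm10 reference, and the deposited values are raw UMI counts of all barcodes. Barcodes of at least 1000 UMIs with over 80% from 1 species were cells, EL4 if Lgals1, S100a6 and Perp summed to at least 5 times Epcam, Cd24a, Ctss and Ckap4, IVA12 in the reverse case, TALL-104 if NKG7, CST7 and CD8A held at least 0.1% of UMIs and Jurkat if under 0.02%. No doublet caller was run, and barcodes of mixed species were left out.

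Counts were summed over at least 20 cells, without mitochondrial genes, and tested with edgeR 4.0.16 in R 4.3.3 (TMM, filterByExpr, quasi-likelihood, Benjamini-Hochberg over all genes, threshold 0.05), with the library as a block where lines, mitochondrial classes or free RNA of the same library were compared. The SE is the log2 difference divided by the root of its F value. DESeq2 1.42.0, other filters and single libraries left out were alternatives. The fits were also run on simulated counts in which a few genes changed evenly in both directions. Those runs cannot show how the fits handle a shift of all genes. Members and gene lists (paraspeckle and speckle proteins, nuclear long noncoding RNAs, transcripts with retained introns, cytosolic messenger RNAs) were chosen with earlier results of these data known. Named genes are the members, the highest and lowest called of each list, and the 5 genes of at least 50 CPM most alike to each member.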

Additional observations from a re-analysis of the deposited data

Results flagged for a closer look

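Malat1 in EL4 was set apart in 1 of the 4 libraries of 3′ v3: replicate 1 had the lowest level, 2230 CPM against 4053 to 4565 CPM, and the gap to its neighbour took up 0.834 of the range of the group on the log2 scale. The level of Neat1 in free RNA over that in cells was set apart in replicate 3 of 3′ v3, with a ratio of 2.26 against 0.234 to 0.556 in the other libraries and a gap of 0.619 in the log2 range of the 7 libraries. Of 16 groups examined, 2 were past the limit, where chance gives about 1 in 20 groups. The step from 5′ v1 to 3′ v3 was larger in IVA12 than in EL4 for Malat1 (1.06 on the log2 scale, by the test of the difference between lines) and for Neat1 (1.54).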

How the results depend on the processing

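Of 32 values of the members, leaving out 1 library at a time or changing 1 setting gave 542 alternatives. Among those that changed 1 setting, 265 kept direction and call, 8 lost the call, 22 gained one and 23 turned direction. These include the fits with mixture F or G alone, which left out the 3′ v3 libraries of the other mixture. All values are log2 differences, and where a call or a direction changed the cause was not tested. Sums without the 6 barcodes over 10 times the median, without shared barcodes or from cells under 10% mitochondrial share turned Neat1 between the mouse lines (−0.014, −0.010 and −0.057). Library totals without TMM turned Neat1 between kits in EL4 (0.042), Malat1 in the line difference of mitochondrial classes (−0.71) and MALAT1 in free RNA (0.097). Relative to the median of all genes, which moved too, these were −0.15, −0.016 and −0.038 with TMM and −0.12, −0.081 and 0.0030 without. They lost Neat1 between kits in IVA12 (1.52) and MALAT1 in Jurkat (1.60), and gained the line difference of Neat1 (−1.41), Malat1 in free RNA (−0.62), MALAT1 between kits in TALL-104 (1.96), the kit difference between human lines of NEAT1 (−0.98) and MALAT1 at 20% or more in Jurkat (1.67). DESeq2 turned the line difference of Malat1 (−0.049), MALAT1 and NEAT1 between 5 to 10% and 10 to 20% in Jurkat (0.0060 and 0.0017) and MALAT1 in free RNA (0.011), and gained MALAT1 between kits in TALL-104 (1.94), NEAT1 between kits and human lines (−1.04) and MALAT1 at 20% or more in Jurkat (1.81). At least 2000 UMIs per cell turned the line difference of Malat1 (−0.054) and MALAT1 in the TALL-104 classes (−0.090) and lost NEAT1 at 20% or more in Jurkat (0.94), and cells of 2000 to 10000 UMIs gave −0.088 and 0.86 for the last pair. Cells under 10% lost Neat1 in free RNA (−0.78) and MALAT1 between kits in Jurkat (1.52) and gained MALAT1 in TALL-104 (1.95). Without a filter on low counts MALAT1 was lost in Jurkat (1.37), and MALAT1 (2.08) and NEAT1 (1.37) were gained in TALL-104, as was MALAT1 with mitochondrial genes kept (1.97). Mixture F alone gained MALAT1 in TALL-104 (1.83) and the kit difference between human lines of MALAT1 (1.201) and NEAT1 (−0.96). Mixture G alone gained MALAT1 (2.09) and NEAT1 (1.88) in TALL-104 and that difference for NEAT1 (−0.75), and turned Neat1 in EL4 (0.11). Sums of at least 5 cells turned MALAT1 and NEAT1 in the Jurkat classes (0.14 and 0.30). Barcodes of 10 to 99 UMIs, of 100 up to 500 UMIs and UMIs in cells of the other species gained Malat1 in free RNA (−0.62, −0.62 and −1.29), turned NEAT1 (−0.18, −0.29 and −0.19), and the last gained MALAT1 (−1.31).

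Replicate numbers pair nothing across kits, and the block is the library that lines or classes share. Without that replicate block, NEAT1 at 20% or more in Jurkat lost its call (1.12), and the Jurkat classes turned for MALAT1 (0.098) and NEAT1 (0.28), as did those of TALL-104 (−0.025 and 0.15). Malat1 was then at 1.46 between the mouse lines and MALAT1 at 2.15 between the human lines, and the block changed no other call.

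Leaving out 1 library at a time moved Neat1 between the mouse lines from −0.13 to 0.20. Between kits, the ranges were 1.13 to 1.38 and −0.23 to 0.058 for Malat1 and Neat1 in EL4, 2.19 to 2.46 and 1.29 to 1.66 in IVA12, 1.21 to 1.60 and 1.78 to 2.15 for MALAT1 and NEAT1 in Jurkat, and 1.89 to 2.03 and 0.92 to 1.47 in TALL-104, with 0.46 to 0.91 for the difference of MALAT1 between the human lines. For mitochondrial classes, they were −0.18 to 0.28 and −0.87 to −0.39 for the line difference of Malat1 and Neat1, −0.23 to 0.011 and −0.20 to 0.14 for MALAT1 and NEAT1 in the Jurkat classes, 0.034 to 0.096 and −0.17 to −0.0024 in those of TALL-104, and 0.21 to 0.85 and 0.74 to 1.52 at 20% or more in Jurkat. In free RNA, they were −0.48 to −0.23 for Malat1, −1.15 to −0.71 for Neat1, −0.16 to 0.044 for MALAT1 and −0.054 to 0.23 for NEAT1. Few cells limit the classes of 20% or more in the human lines and all values of TALL-104 in 3′ v2 and 5′ v1, where 30 to 70 cells were found.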
